A study of Homo sapiens with 3 samples.

Results

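Potassium channel genes, whose symbols begin with KCN, were named for 227 of 21585 YBX1 peaks of replicate 1 and 171 of 16251 of replicate 2. These totals leave out chromosomes X and Y, and the whole lists held 22874 and 17285 peaks. A peak was a member when the authors' annotation named a KCN gene for it and it lay outside chromosomes X and Y, where 1 further KCN peak was left out of each list. YBX1 belongs to the Y-box family, whose cold-shock domain contacts nucleic acids. It was immunoprecipitated from crosslinked chromatin of untreated HEL cells, an established human erythroleukaemia line with a mutated JAK2 gene, and the DNA was sequenced (ChIP-seq). There were 2 immunoprecipitations, replicates 1 and 2, and 1 input library of sheared chromatin, against which both peak lists were called. No control immunoprecipitation without the antibody was analysed here, and the labels do not state whether the replicates came from separate cultures.

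Potassium channels let potassium ions leave or enter cells and so set the resting voltage and end electrical signals. The family falls into voltage-gated Kv subunits with the KCNH and KCNQ groups, inward rectifiers (Kir, KCNJ genes), background channels with a pair of pore domains in each subunit (K2P, KCNK genes), channels opened by calcium or sodium, and auxiliary subunits that join a pore without forming one. Several of the genes are long, with large introns, and are known best from nerve and heart.

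The ChIP libraries held 10275569 and 10190347 tags. Without duplicates 10010819 and 9926271 remained, and the input held 77308330 tags. Tag counts and fold enrichments, the ratio of ChIP tags at a peak's summit to the local background, were taken per peak as the authors give them. Widths and summit folds rest on a fragment shift of 20 bp, shorter than a tag, and do not measure the extent of binding. Where the input did not exceed the genome-wide level, folds are whole multiples of 13.5 in replicate 1 and 13.6 in replicate 2 (within 0.006). This held for 37.0% and 35.7% of KCN peaks, beside 36.2% and 34.6% of all peaks, so many folds are tied.

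The sequences that recurred under the KCN peaks were short tandem repeats, given in the annotation by their unit. The unit TAGA (read as TCTA on the other strand) and the unit TGGA (read as TCCA) were the most frequent, and they are called AGAT and ATCC repeats here after grouping over rotations and strands. No hg19 genome was used here, so the bases under the peaks are not printed. Promoter peaks were annotated for KCNE1, KCNJ18 and KCNMB3, and for each of these genes an upstream window of RefSeq (GRCh38.p14) is shown. The annotation ties the peaks to promoters of these genes in hg19, not to the windows printed. Each runs 5′ to 3′ on the strand of the gene over the 250 bases before a listed start, and capitals mark the CCAAT box or its reverse complement ATTGG, the element for which Y-box proteins were named.
KCNE1, chr21:34512211-34512460, minus strand: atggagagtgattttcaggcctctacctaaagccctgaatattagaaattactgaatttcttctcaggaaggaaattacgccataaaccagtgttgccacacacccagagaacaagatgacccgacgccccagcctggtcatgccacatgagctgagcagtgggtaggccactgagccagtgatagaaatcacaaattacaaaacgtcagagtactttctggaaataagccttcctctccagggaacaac
KCNJ18, chr17:21692273-21692522, plus strand: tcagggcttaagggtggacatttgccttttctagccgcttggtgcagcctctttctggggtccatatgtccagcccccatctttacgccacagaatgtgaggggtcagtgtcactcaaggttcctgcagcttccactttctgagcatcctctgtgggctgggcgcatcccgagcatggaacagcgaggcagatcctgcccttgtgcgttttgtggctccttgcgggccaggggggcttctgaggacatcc
KCNMB3, chr3:179259892-179260141, minus strand: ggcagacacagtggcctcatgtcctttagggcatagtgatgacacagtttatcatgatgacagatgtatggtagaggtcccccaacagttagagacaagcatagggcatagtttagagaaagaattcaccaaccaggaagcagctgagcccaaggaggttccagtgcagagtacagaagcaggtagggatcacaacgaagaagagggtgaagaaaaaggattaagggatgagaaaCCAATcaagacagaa
The window is the first listed of 4 for KCNE1 and of 3 for KCNMB3, and KCNJ18 has 1. The peaks are given in hg19, so whether they fall within these windows was not determined. On either strand, CCAAT was found once in the KCNMB3 window and was not found in those of KCNE1 and KCNJ18. Over windows of 300 bases from 250 before to 50 after each start, it was found in 44 of the 134 KCN windows (32.8%, covering 94 genes) and in 34.6% of all 35116. A run of 3 copies of AGAT, in any rotation and on either strand, was in 0 KCN windows and in 5 of all windows (0.0142%). For ATCC the numbers were 0 KCN windows and 18 of all (0.0513%). Both runs were so rare over all windows that 0 among 134 says nothing about KCN promoters.

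The lists named 64 KCN symbols, of which 56 stood in both. They comprised 61 coding genes and 3 transcripts (KCNC4-AS1, KCNJ2-AS1 and KCNQ5-IT1). The RefSeq gene table holds 94 coding KCN genes outside chromosomes X and Y, so 64.9% were named and 33 were not. The share of all coding genes named in the lists was not determined. Whether 64.9%, or the counts of named genes per group below, are high or low is therefore not known. Overlapping peaks of the lists were merged into 109 KCN regions found in both, 1.06% of all 10278 such regions. Of the 64 symbols, 53 (82.8%) were named for at least 1 of these regions, where the background over all genes named in either list was 67.0%. Of 34 symbols with a peak in a promoter, exon or intron, 27 (79.4%) had such a region in both lists, beside a background of 58.6%. Gene length, which sets how many peaks a gene can hold, was not taken into account.

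About as many KCN peaks lay in introns as between genes. In replicate 1, 109 peaks were intronic (48.0%, 95% Wilson interval 41.6 to 54.5%), 110 intergenic (48.5%), 5 in promoters (2.20%) and 3 in exons (1.32%). In replicate 2, 87 were intronic (50.9%, interval 43.4 to 58.3%), 77 intergenic (45.0%), 5 in promoters and 2 in exons. All peaks were intronic in 38.3% and 37.6% of cases and intergenic in 57.4% and 58.0%, so the KCN peaks had the higher intronic share in both lists. The intervals cover counting error only, and peaks of 1 locus are not independent. An intergenic peak often names several neighbours: 122 KCN peaks of replicate 1 (53.7%) and 98 of replicate 2 (57.3%) named a single symbol.

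ATCC repeats were more common under KCN peaks than under all peaks, and AGAT repeats were less common. ATCC repeats lay under 68 KCN peaks of replicate 1 (29.96%, interval 24.4 to 36.2%) and 58 of replicate 2 (33.9%, interval 27.2 to 41.3%), where all peaks gave 20.1% and 21.7%. AGAT repeats lay under 31 (13.7%) and 32 (18.7%), where all peaks gave 21.8% and 26.8%. Tandem repeats of any unit held 119 KCN peaks of replicate 1 (52.4%, beside 49.7% of all) and 114 of replicate 2 (66.7%, beside 57.5%). ACC repeats (TGG or CCA) held 11 and 12, and the 6-base unit ACCATC (annotated ATGGTG) held 3 and 4. Outside tandem repeats, LINE elements held 35 KCN peaks of replicate 1 (15.4%, beside 11.8% of all) and 10 of replicate 2 (5.85%, beside 9.62%), above the share of all peaks in one list and below it in the other. No repeat label was given for 53 and 35. None lay on an annotated CpG island in either list, where the intervals allow up to 1.66% and 2.20% and all peaks gave 0.459% and 1.11%, so the count of 0 was within the range of the background.

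**Figure D1:**
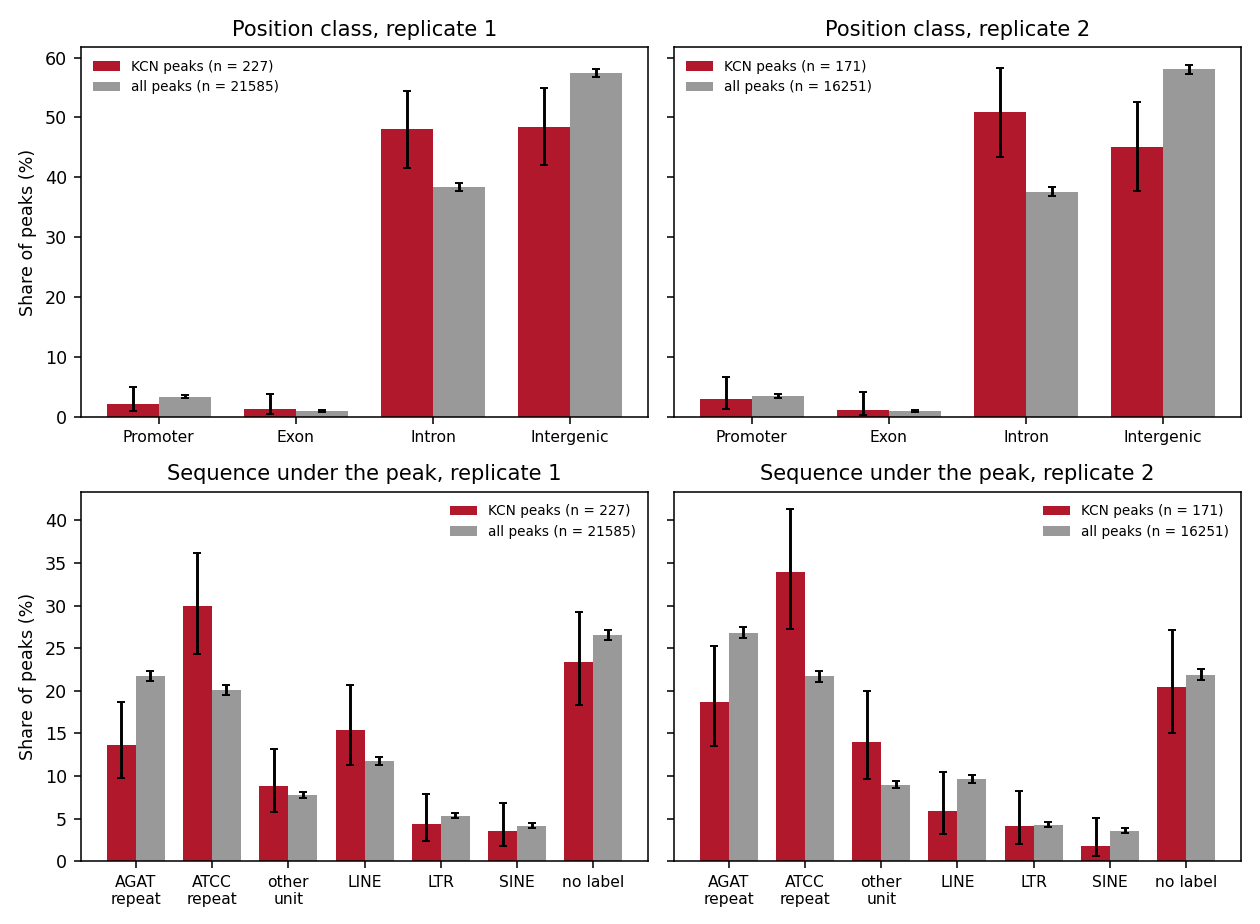
Shares of KCN peaks (red) and all peaks outside chromosomes X and Y (grey) by position class (top) and by the sequence annotated under the peak (bottom), in percent, for replicate 1 (left) and replicate 2 (right); bars carry 95% Wilson intervals. KCN peaks show higher intron shares (48.0% and 50.9%, beside 38.3% and 37.6%) and higher ATCC repeat shares (29.96% and 33.9%, beside 20.1% and 21.7%).

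KCN peaks were found in the other list about as often as peaks in general. In replicate 1, 125 of 227 overlapped a replicate 2 peak by at least 1 bp (55.1%, interval 48.6 to 61.4%), and the background over all peaks was 53.8%. In replicate 2, 142 of 171 overlapped a replicate 1 peak (83.0%, interval 76.7 to 87.9%), beside a background of 77.4%. By position, 61 of 109 intronic KCN peaks of replicate 1 were found again (background 52.7%) and 58 of 110 intergenic ones (background 55.0%). In replicate 2 these were 76 of 87 (background 78.8%) and 60 of 77 (background 77.5%).

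Repeat unit and tag count went with sharing, and also with each other. KCN peaks on AGAT repeats had a median of 23 tags in replicate 1 and 14 in replicate 2. Those on ATCC repeats had 8.5 and 9. Over all peaks the medians were 16 and 13 for AGAT and 11 and 9 for ATCC. The parts of unit and tag count in sharing were not separated. KCN peaks on AGAT repeats were shared in 28 of 31 cases in replicate 1 (background 84.5%) and 30 of 32 in replicate 2 (background 95.4%). Those on ATCC repeats were shared in 42 of 68 (background 63.1%) and 54 of 58 (background 90.0%). KCN peaks on LINE elements were shared in 8 of 35 cases in replicate 1 (22.9%, beside a background of 38.6%) and 7 of 10 in replicate 2 (70.0%, beside a background of 69.3%), so the lower share was seen in replicate 1 alone. Of the KCN peaks with 5 tags, the lowest count in the lists, 10 of 57 were shared in replicate 1 (background 18.4%) and 21 of 33 in replicate 2 (background 48.9%). Every KCN peak with 16 or more tags was shared: 61 in replicate 1, made up of 36 with 16 to 30 tags and 25 with over 30 (backgrounds of 92.1% and 98.9%), and 25 and 11 in replicate 2 (backgrounds of 96.8% and 97.9%). These backgrounds are near 100.0% themselves. In replicate 1 the median was 15 tags and a 70.7-fold enrichment for shared KCN peaks, and 6 tags and 40.5-fold for the others. Over all peaks of that list it was 14 tags and 70.0-fold, and 6 tags and 42.6-fold. In replicate 2 the KCN medians were 10 tags and 54.4-fold when shared, and 6 tags and 40.8-fold otherwise. All peaks of that list gave 10 tags and 59.0-fold, and 6 tags and 40.8-fold.

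**Figure D2:**
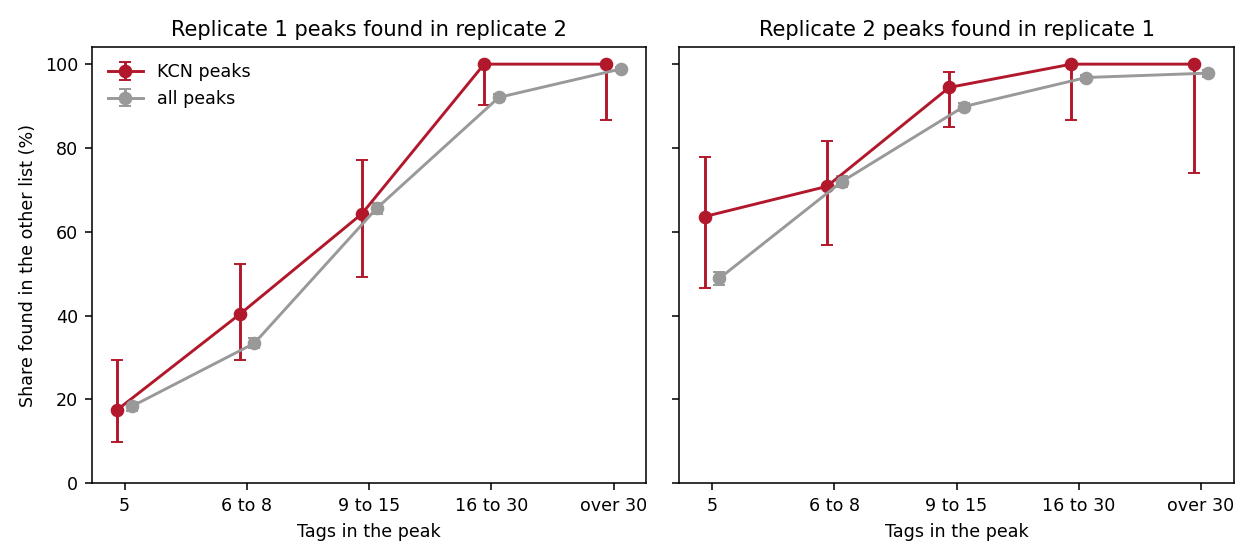
Share of peaks found in the other list (percent, 95% Wilson intervals) against the number of tags in the peak, for KCN peaks (red) and all peaks (grey), from replicate 1 to replicate 2 (left) and back (right). In both panels the shares are lowest at 5 tags and highest above 15 tags; at 5 tags the KCN share is 17.5% beside 18.4% of all peaks in replicate 1, and 63.6% beside 48.9% in replicate 2.

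Some of the KCN peaks in 1 list lay next to a peak of the other. Of the 102 such peaks of replicate 1, 68 (66.7%) were within 1000 bp of a replicate 2 peak, beside 55.5% of all single-list peaks. Of the 29 of replicate 2, 12 (41.4%) were within that distance of a replicate 1 peak, beside 52.1% of all. The strongest single-list peak of replicate 1 lay in an intron of KCNS3, an electrically silent Kv subunit, with 7 tags on a TCCA repeat and an 80.9-fold enrichment, and ended 2 bp from a replicate 2 peak. It was followed by a 76.7-fold peak (14 tags) 141 bp from the nearest replicate 2 peak by KCNJ14, an inward rectifier, and a 70.03-fold peak (8 tags) in an intron of KCNA6, a voltage-gated Kv subunit, 132061 bp from one. Next came 7 peaks tied at 67.4-fold, for KCNS3, KCNN1, KCNQ1, KCNIP4 (2 peaks), KCNT1 and KCNG1. In replicate 2 the strongest were for KCND3 (68.0-fold), KCNK12 (63.6-fold) and KCNAB2 (56.7-fold), then 4 tied at 54.4-fold for KCNK2, KCNG1 and KCNIP4 (2 peaks), with 5 to 8 tags each. KCNG1, another silent Kv subunit, had an 8-tag peak in each list at this locus, and they lay 73 bp apart without overlapping.

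Among the 109 shared KCN regions, 76 lay on tandem repeats by the label of the strongest replicate 1 peak (69.7%, interval 60.5 to 77.6%), beside 67.6% of all shared regions. ATCC repeats held 36 of them (33.0%, beside 22.4% of all) and AGAT repeats 28 (25.7%, beside 37.6%). Introns held 53 (48.6%, beside 37.0%), intergenic positions 51 (46.8%, beside 59.3%), promoters 3 and exons 2. The repeat label was the same in both lists for 94 regions (86.2%, beside 86.1% of all). By either label, 73 regions were on tandem repeats in both lists, 10 in replicate 2 alone and 3 in replicate 1 alone. Joining regions within 1000 bp left 76 loci, 51 of them with a single region and none with more than 4.

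The tag counts were higher in replicate 1 for most KCN regions. The strongest peak held more tags in replicate 1 in 79 regions (72.5%, beside 69.9% of all) and the same number in 6, and the median ratio of replicate 1 to replicate 2 was 1.38, beside 1.32 over all regions. With the tags of all peaks of a region summed, replicate 1 was higher in 81 regions and the median ratio was 1.35, beside 1.31 over all regions. The upper quartile of this ratio was 1.71, beside 1.7 over all regions. Replicate 1 was over 2-fold higher in 21 regions and over 2-fold lower in 1, an intronic region of KCNH5 with 6 tags in replicate 1 and 13 in replicate 2. How many of all regions differed so in summed tags was not determined. The fold enrichment was higher in replicate 1 in 68 regions, with a median ratio of 1.16 (1.19 over all). Summits of the strongest peaks lay within 20 bp of each other in 62 regions (56.9%, beside 64.2% of all) and within 100 bp in 101.

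**Figure D3:**
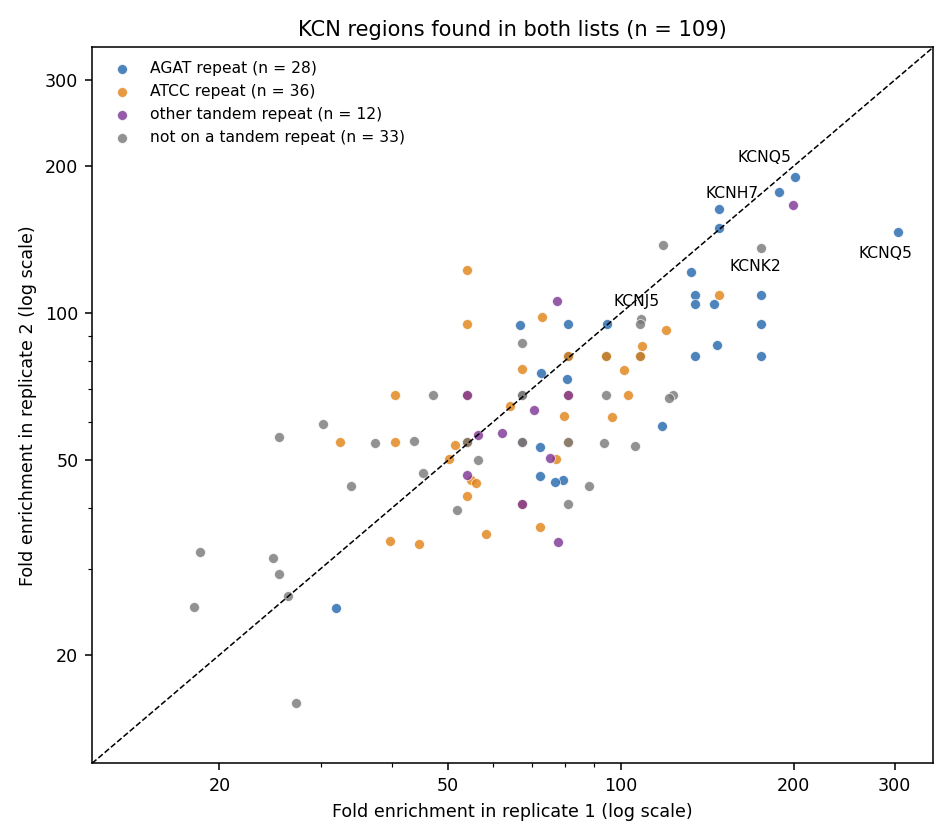
Fold enrichment of the strongest peak in replicate 1 (x, log scale) and replicate 2 (y, log scale) for each of the 109 KCN regions found in both lists, coloured by repeat unit; the dashed line marks equal values. Regions on AGAT repeats fill most of the upper right, led by KCNQ5 (202 and 189.7) and KCNH7 (189 and 177), and 68 of the 109 points lie below the line.

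KCNQ genes had the strongest KCN region and 17 shared regions in all, 14 of them on tandem repeats (67.6% over all shared regions). These genes encode voltage-gated channels that open slowly, and KCNQ3 and KCNQ5 contribute to the M-current that restrains firing of neurons. KCNQ genes were named for 37 peaks of replicate 1 and 28 of replicate 2. KCNQ5 led with 6 shared intronic regions along 364 kb. Its strongest, at chr6:73773178-73773736 (hg19) on a TAGA repeat, had a 202-fold enrichment in replicate 1 (107 tags) and 189.7-fold in replicate 2 (49 tags), with summits 3 bp apart. By the lower of both folds it ranked 47 among all shared regions. A second TAGA region of KCNQ5, at chr6:73734080-73734186, had the highest fold of any KCN peak, 304 in replicate 1 (34 tags), and 146 in replicate 2 (22 tags). It was flanked on each side by a region without a repeat label (106-fold and 53.6-fold, then 51.8-fold and 39.5-fold), and a TCTA region (147-fold and 86.1-fold) and an L2 element (34.0-fold and 44.3-fold) made up the 6.

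KCNQ1, which makes the slow repolarising current of the heart, had 4 intronic shared regions, all on TGGA repeats, with folds of 32.5 to 108 in replicate 1 and 54.4 to 81.6 in replicate 2. The tag counts of these ran from 5 to 12, and 3 of the regions lay side by side at chr11:2835346-2835756. KCNQ3 had 4 intronic shared regions, 3 on ATCC repeats and 1 on a TGG repeat, with folds of 44.5 to 73.0 and 33.7 to 98.3.

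KCNH genes encode voltage-gated channels that include hERG (KCNH2), which repolarises heart muscle cells, and 5 of the 8 were named, all 5 with a shared region. They had 12 shared regions, of which 5 were on tandem repeats by the replicate 1 label, all AGAT (any tandem repeat, 67.6% over all shared regions). By the replicate 2 label, a further region each of KCNH2 (TAGA), KCNH6 (TCCA) and KCNH7 (TCCA) lay on a tandem repeat. Of the KCNH peaks, 29.4% in replicate 1 and 57.1% in replicate 2 were on tandem repeats, beside 49.7% and 57.5% of all peaks. The low share was thus seen with the replicate 1 labels alone. KCNH7, a close relative of KCNH2, had 4 shared regions in its introns over 99.9 kb. Of the gaps between them, 2 were within 10000 bp, and the smallest was 13 bp. The strongest KCNH7 region, on a TCTA repeat at chr2:163433586-163433922, had a 189-fold enrichment with 55 tags and a 177-fold enrichment with 52 tags. KCNH2 was named only for intergenic regions, 3 in number, and the strongest (108-fold and 95.2-fold) also named AOC1, NOS3, TMEM176A and TMEM176B. That region was annotated as an Alu element in replicate 1 and as a TAGA repeat in replicate 2, with summits 2 bp apart. KCNH8 had a TCTA region in an intron with 94.5-fold and 95.2-fold enrichments (16 and 15 tags). The pair of KCNH5 regions, 0.371 kb in extent together, lay on low-complexity G-rich or GA-rich sequence with enrichments of 67.4-fold and 94.4-fold in replicate 1 and 68.0-fold for both in replicate 2.

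The other Kv genes, which encode the pore subunits of delayed-rectifier and A-type currents and their silent partners, were named in 19 of 26 cases. They had 26 shared regions, and 17 of these were on tandem repeats (67.6% over all shared regions). KCNC2, whose channel opens and closes fast and allows rapid firing, led with a pair of TAGA regions. The intronic one, at chr12:75478013-75478147, gave 148-fold (35 tags) and 163-fold (34 tags) enrichments. The intergenic one, at chr12:75609455-75609582, gave 148-fold (26 tags) and 149.6-fold (20 tags) and also named CAPS2. The replicates were close at both, and each had weaker regions without a repeat label nearby. Outside the Kv gene bodies, KCNS2 and KCNV1, silent subunits, were named for intergenic regions with 118-fold and 138-fold, and 135-fold and 105-fold, enrichments. Genes with a shared region in the gene body were 4 of the 19, among them KCNC2, KCNS3 and KCND2.

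Among the Kir genes, 9 of 16 were named and 8 had a shared region. They had 20 shared regions, 11 of them on tandem repeats (67.6% over all shared regions). KCNJ16, which forms channels with other Kir subunits in kidney and brain, had the strongest, a TAGA region in an intron at chr17:68088660-68088817 with 175-fold (36 tags) and 109-fold (26 tags) enrichments. KCNJ5 encodes a subunit of the G-protein-gated channel that slows the heartbeat. Its shared region, chr11:128785528-128786393, was classed as exon in both lists, yet the detailed label of the replicate 1 peak read intron 2 of 2 and that of the strongest replicate 2 peak a TGGA repeat. Replicate 1 gave 1 peak of 865 bp with 296 tags and a 108-fold enrichment. Replicate 2 gave 3 peaks with 15, 29 and 194 tags and enrichments of 21.5-fold, 78.7-fold and 97.2-fold, of which the first 2 were classed as intron and the last, 614 bp wide, as exon. The strongest summits coincided (0 bp apart), and the sums were 296 and 238 tags. How many bases of either peak lie in the exon was not determined.

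KCNK2 had the other exon region. It encodes a K2P background channel that responds to stretch, heat and lipids. The region, chr1:215409342-215409433, was labelled 3′ UTR, exon 7 of 7, in both lists and carried no repeat label. Replicate 1 gave 19 tags and a 175-fold enrichment over 68 bp, and replicate 2 gave 16 tags and 136-fold over 92 bp, with summits 0 bp apart. A second exon peak, at chr1:215409223-215409275, was in replicate 1 alone with 6 tags and a 53.9-fold enrichment. Among all peaks, 0.950% and 0.917% were classed as exon, and of these 31.7% of replicate 1 and 45.6% of replicate 2 peaks were found in the other list. KCNK2 also had an intronic region, annotated as an LTR element in replicate 1 and a TCTA repeat in replicate 2, with 123-fold (26 tags) and 68.0-fold (9 tags) enrichments. Of the 15 K2P genes, 7 were named and 6 had a shared region. KCNK12 was named for an intergenic TGGA region with 120-fold and 92.2-fold enrichments, where replicate 1 had 80 tags in 1 peak and replicate 2 had 33 over 3 peaks.

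**Figure D4:**
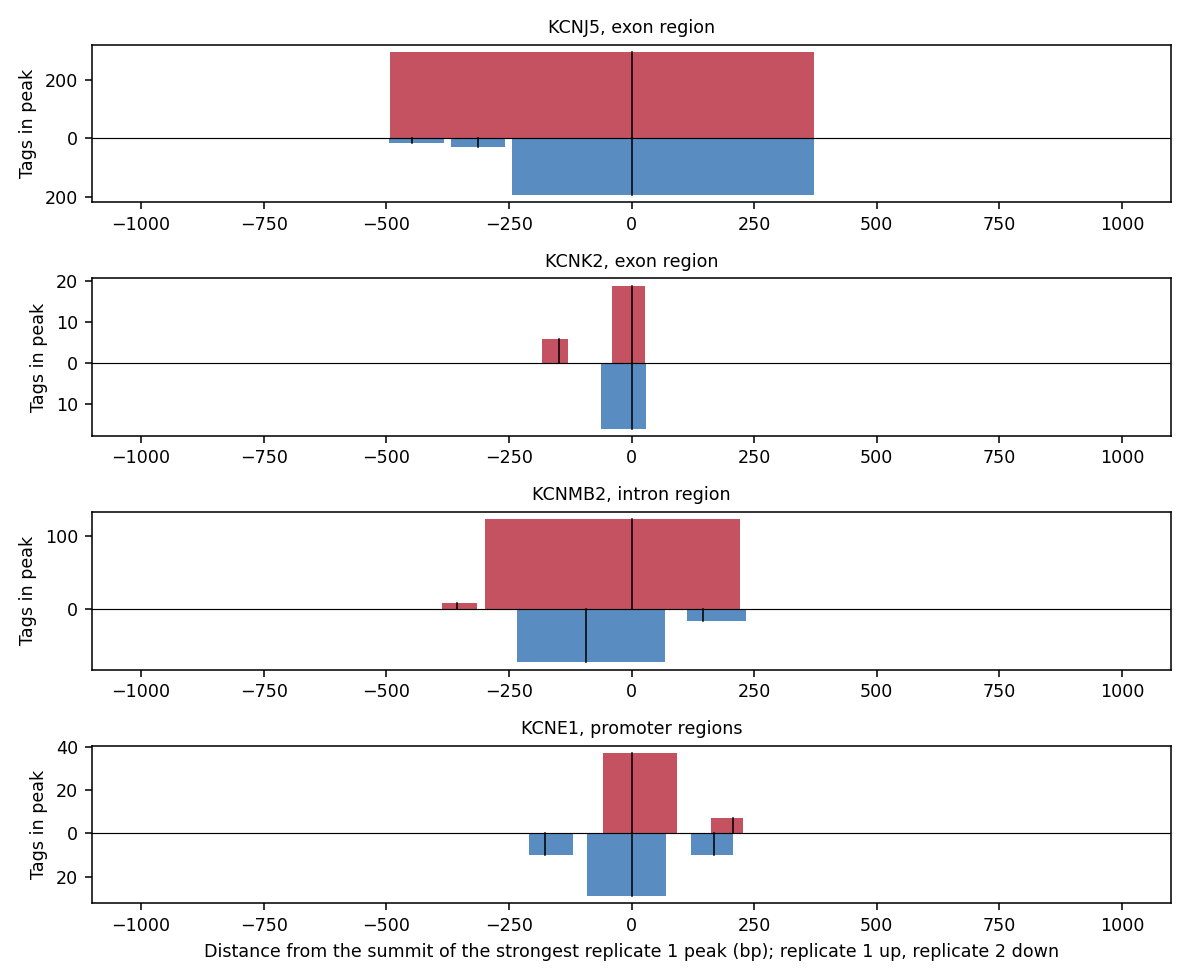
Peaks at 4 KCN loci by distance in bp from the summit of the strongest replicate 1 peak; each box spans a peak, its height is the number of tags in it (replicate 1 upward in red, replicate 2 downward in blue), and the black line in a box is its summit. At KCNJ5 a single wide replicate 1 peak (296 tags) faces 3 replicate 2 peaks, at KCNMB2 a replicate 1 peak of 123 tags faces peaks of 73 and 17 tags, and at KCNJ5, KCNK2 and KCNE1 the strongest summits coincide.

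The 8 calcium- or sodium-activated channel genes were named in 6 cases, and 4 had a shared region. They had 5 shared regions, all on tandem repeats, 4 ATCC and 1 AGAT, where 67.6% of all shared regions were on tandem repeats. Of the 5, 2 were neighbouring intergenic regions that named KCNN1 among 9 genes. KCNMA1, the pore of the large-conductance calcium-activated channel, had a TGGA region in an intron with 80.9-fold (13 tags) and 68.0-fold (10 tags) enrichments. KCNT1, a sodium-activated channel, had 4 intronic peaks in replicate 1, of which 1 was shared (53.9-fold and 54.4-fold).

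Auxiliary subunits were named in 10 of 15 cases, and 7 had a shared region. They had 22 shared regions, 20 of them on tandem repeats (67.6% over all shared regions). Regions side by side at 1 site, as for KCNIP1 below, were counted apart and are not independent. KCNIP4 and KCNIP1 encode calcium-binding proteins that join the A-type Kv channels. KCNIP4 had 5 shared regions in its introns, all on AGAT repeats, spread over 787 kb with at least 29068 bp between neighbours. The enrichments were 72.6-fold to 175-fold in replicate 1 and 75.3-fold to 122-fold in replicate 2, with 16 to 26 and 11 to 15 tags. In replicate 1 KCNIP4 had 13 peaks, the most of any KCN gene in its body, and 8 of these were in that list alone. KCNIP1 had 4 intronic shared regions, on ATGGTG and ATG repeats, with enrichments of 53.9-fold to 80.9-fold and 40.8-fold to 68.0-fold. Of the gaps between these neighbours, 2 were within 10000 bp, and the smallest was 6 bp. A further 5 KCNIP1 regions were intergenic, led by a TGGA region at chr5:170181392-170181839 with 148-fold and 109-fold enrichments that also named GABRP. Apart from the region at chr5:170260996-170261265, these lay side by side within chr5:170181122-170182092, on TGGA repeats by the replicate 1 label. KCNMB2, a beta subunit of the calcium-activated channel, had a TAGA region in an intron at chr3:178286366-178286897 with 145-fold (123 tags) and 105-fold (73 tags) enrichments. Replicate 2 had a further peak of 17 tags there (53.8-fold), and the sums were 123 and 90 tags. KCNAB2, a beta subunit of Kv channels, had a pair of TGG regions, 218 bp from the end of one to the start of the other, with 56.4-fold and 77.8-fold enrichments in replicate 1 and 56.4-fold and 34.0-fold in replicate 2.

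The 3 regions found in both lists and classed as promoter by the replicate 1 peak belonged to KCNE1 and to KCNJ18. KCNE1 encodes the small partner of KCNQ1 in the heart. Its stronger promoter region, chr21:35885825-35886007 on a TCCA repeat, had a 101-fold enrichment with 37 tags in replicate 1 and 76.6-fold with 29 tags in replicate 2, with summits 0 bp apart. The weaker, chr21:35886037-35886143, carried no repeat label and had 18.5-fold (7 tags) and 32.5-fold (10 tags) enrichments. Another promoter peak, on a TC repeat with 10 tags and a 39.7-fold enrichment, was in replicate 2 alone. The KCNJ18 region, chr17:21310314-21311369 on CCCA and TCCA repeats, comprised 2 peaks of 11 and 175 tags in replicate 1 and 5 peaks of 6 to 46 tags in replicate 2. Its sums were 186 and 131 tags, and the strongest folds 79.6 and 61.8. Of the 5 replicate 2 peaks, 3 were classed as intron, the strongest by fold among them, and this was the single KCN region whose class differed between the lists. Some of these peaks also named KCNJ12, a nearly identical copy of KCNJ18. In hg19 the region lies between replicate 1 peaks at chr17:21305701-21305757 and chr17:21312361-21312410. These were labelled intron 1 of 2 and intron 2 of 2 of the same transcript, and the first named KCNJ12 alone. The lists thus place both genes at the same locus, within KCNJ12, and which copy the tags came from is uncertain. The KCNMB3 promoter peak, labelled as non-coding exon 1 of 5, was in replicate 1 alone with 5 tags and a 26.1-fold enrichment.

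**Figure D5:**
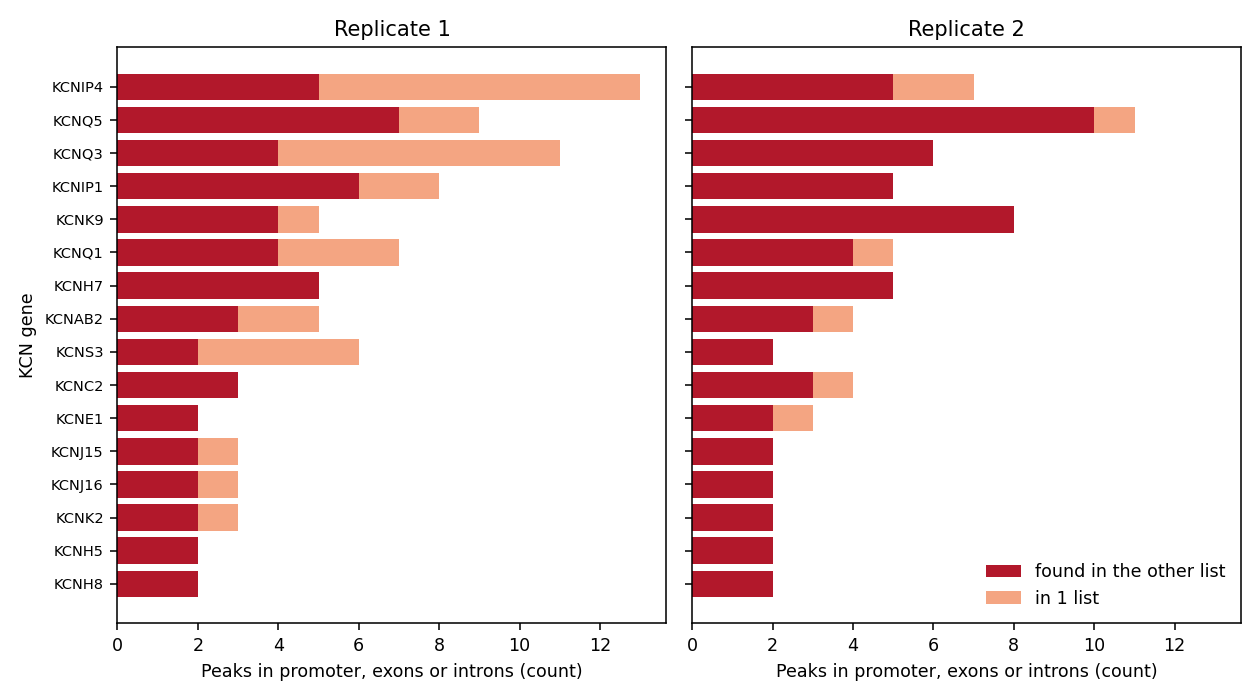
Number of peaks in the promoter, exons or introns of each of the 16 KCN genes with 2 or more shared regions there, in replicate 1 (left) and replicate 2 (right), divided into peaks found in the other list (dark) and peaks in 1 list (light). KCNIP4 has 13 and 7, KCNQ5 9 and 11 and KCNQ3 11 and 6, and KCNH7 has 5 in each, all found in the other list.

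Of the 58 shared regions in KCN gene bodies, 36 belonged to the 10 genes with the most. The 20 strongest shared KCN regions came from 15 genes, with 16 on tandem repeats, 12 in introns, 6 intergenic and 2 in exons. Of all shared regions, 67.6% were on tandem repeats, 37.0% in introns, 59.3% intergenic and 0.603% in exons. The shares among equally strong regions of all genes were not determined. Of all replicate 1 peaks, 75.6% of those with 16 to 30 tags and 79.0% of those with over 30 lay on tandem repeats. Over all shared KCN regions the median fold was 72.6 in replicate 1 and 61.8 in replicate 2, beside 77.1 and 65.5 for all shared regions. The KCN peaks on AGAT repeats had median folds of 108 and 90.3 (92.4 and 80.3 over all AGAT peaks), and those on ATCC repeats 53.9 and 54.4 (66.7 and 54.4 over all ATCC peaks).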

How the data were processed

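YBX1 ChIP-seq peak lists of 2 replicates were used. Tools listed in the submitters' processing notes are MACS 1.4, Bowtie2, Trimmomatic 0.36 and bcl2fastq 02.14.01.07, with build hg19. Per the file headers, MACS 1.4.2 called each replicate against the same input, at a p-value cutoff of 1e-05, with 1 tag kept per position and a shift d of 20 bp. The authors then filtered and annotated the lists, and the filter's rule is not stated in the sources used. The deposited tag count is the number of tags in a peak, the deposited fold enrichment is a ratio to the local background, and the deposited score was read from its range as the negative log10 of p times 10. The deposited false discovery rate, a percent, was not used to select peaks. Position classes, genes and repeats are the authors' annotation, given in the deposited lists as words. The header of the replicate 2 list names an alignment with another number, and the label was followed.

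Symbols were divided at semicolons. Peaks were called shared if they had 1 bp or more in common with the other list. Overlapping peaks were merged into regions, described by the annotation of the replicate 1 peak with the highest fold. Shares carry 95% Wilson intervals (statsmodels 0.14.6, pandas 2.3.3, python 3.11.15), which cover counting error only. There is no other group, so no test was made. Of the 64 symbols, 63 were current in a RefSeq gene table of GRCh38.p14 and 1 matched an older name. Scripts were checked on simulated data. The members, gene groups and alternatives were chosen with earlier results of these data known. Named were KCNK2 and KCNJ5, genes with promoter or exon peaks, those of the 20 strongest shared regions by lower fold, the 10 with the most shared regions in the gene body, the strongest of each group, and the 5 strongest peaks of 1 list. Results of some genes that this rule names are not reported here. Alternatives were a 50% overlap, a p-value of at most 1e-10, gene-body peaks only, the class from replicate 2, leaving out transcripts and leaving out a replicate.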

Additional observations from a re-analysis of the deposited data

How the results depend on the processing

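Of 22 alternative values, 15 stayed close to the value reported, which for a share means within its interval and for a count within 1.5 times. With an overlap of 50% of the shorter peak, the shared shares were 49.8% and 79.5%, the shared regions numbered 109 and 70.6% were on tandem repeats. With a p-value of at most 1e-10, 64.0% of KCN peaks of replicate 1 were shared (60.4% of all peaks so selected), while in replicate 2 the share was 82.3%, below the 87.9% of all. At that threshold there were 65 shared regions, 78.5% of them on tandem repeats. The tandem repeat share then rose to 72.1% of KCN peaks in replicate 1 and 78.1% in replicate 2, and the intron shares were 52.3% and 56.2%. These 4 alternatives were chosen after seeing the data. The tandem repeat and intron shares of all peaks and regions at that threshold were not determined. Over all peaks the tandem repeat share rose with tag count too. It went from 25.5% at 5 tags to 79.0% at over 30 tags in replicate 1. In replicate 2 it went from 33.1% to 81.8%. With promoter, exon and intron peaks alone there were 58 shared regions and 34 named genes, as fewer peaks enter. Leaving out 1 replicate gave 58 to 62 named genes. No paired analysis was possible because there is 1 group of immunoprecipitations and no test between groups. At 5 tags the shared part of the KCN peaks was 17.5% (replicate 1) or 63.6% (replicate 2), which limits what can be said of single genes from such peaks. The shared input, the absence of a control immunoprecipitation from what was analysed here and the unknown origin of the replicates limit both lists alike.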

Other observations

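Genes of other ion channel families were named for YBX1 peaks too. TRP channel genes, which encode cation channels that respond to heat, touch and chemicals, were named in 14 cases, 11 of them with a shared region. They had 30 shared regions, and the strongest, of TRPV3, had 229-fold and 218-fold enrichments, above the strongest KCN region by the lower fold. Calcium channel genes (CACN) were named in 18 cases and 7 had a shared region, with 24 regions in all. Voltage-gated sodium channel genes (SCN) were named in 8 cases and 4 had a shared region, with 8 regions. Chloride channel genes (CLCN) had 4 shared regions in 4 genes, and pacemaker channel genes (HCN) 2 in 2 genes. Over all genes named in either list, 67.0% were named for a shared region. The number of genes in each of these families was not counted.

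Tandem repeats held 21 of the 30 TRP regions (70.0%), 18 of the 24 CACN regions, 6 of the 8 SCN regions, 2 of the 4 CLCN regions and 1 of the 2 HCN regions, beside 67.6% of all shared regions. Intergenic positions held 9 of the TRP regions, 11 of the CACN (45.8%), 7 of the SCN (87.5%), 3 of the CLCN and none of the HCN regions, beside 59.3% of all. In replicate 1 the share of peaks found in the other list was 35.1% for CACN, 52.9% for SCN, 64.2% for TRP, 6 of 8 peaks for CLCN and both peaks for HCN, beside 53.8% of all. In replicate 2 it was 80.4% for CACN, 87.3% for TRP and 100.0% for SCN, CLCN and HCN, beside 77.4% of all. Gene length was not taken into account, and no test was made between families.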
